A study of Mus musculus with 6 samples.

Results

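A set of 10 genes that mark the enteroendocrine cells of the gut was examined in mouse ileum, the distal end of the small intestine: the peptide hormone genes Sct, Nts, Pyy, Gcg, Cck, Sst and Gip, the granin genes Chga and Chgb, and Tph1. They were chosen by name, and all 10 were among the 21950 genes listed for both genotypes. The study compared 3 wild type mice with 3 TLR4ΔIEC mice, in which Toll-like receptor 4 (Tlr4), the receptor for bacterial lipopolysaccharide, is deleted in intestinal epithelial cells. All were C57BL/6 mice 24 weeks old, and the sources used here do not name the promoter that drives the deletion. RNA of whole ileum depleted of ribosomal RNA was sequenced, and the deposited values are 1 column of average coverage per genotype, each shared by its 3 mice. There is thus no spread between mice and no test, and every ratio below compares a pair of pooled columns. Per the series' design text the pool of each genotype was sequenced on its own, so genotype and sequencing pool cannot be told apart.

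Enteroendocrine cells are rare, scattered cells of the epithelium that sense the gut contents and release hormones from dense-core granules. They arise in the crypts and move up the villi, and in mouse many of them switch hormones on the way: Gcg and Tac1 are typical of crypt cells, while Sct and Nts are known to be stronger in villus cells. Granins are acidic proteins that pack the hormones into granules, and tryptophan hydroxylase, the product of Tph1, carries out the first step of serotonin synthesis in enterochromaffin cells, the most common endocrine cells of the gut.

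The wild type column listed 22724 entries with a summed coverage of 699800 and a median of 1.57, and the TLR4ΔIEC column 22687 entries with a sum of 698473 and a median of 1.70. Coverage was put on a common scale, called units below, on which 1 unit equals 0.683 of wild type coverage and 0.716 of TLR4ΔIEC coverage. Since coverage is an average over length, levels in units were set beside each other between genes. The length averaged over was not always that of the annotated exons or the same in both columns. Such comparisons between genes are therefore approximate. Ratios are log2(TLR4ΔIEC/wild type) of units plus 1, and a gene was counted where its mean was at least 5 units and its ratio at least 2-fold. The average coverage of Tlr4 itself was 1.98 (wild type) and 1.60 (TLR4ΔIEC), a log2 ratio of -0.27 and below that level. The value covers the entire transcript in tissue whose non-epithelial cells are not targeted, so it is a weak check of the labels. The ileal bile acid genes Slc10a2 (92.9 and 93.6 units) and Fabp6 (15333 and 13619 units) were abundant in both columns.

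The windows of 300 bases around the start of transcription of the 3 hormone genes that were lower by 2-fold or more in TLR4ΔIEC (Sct, Nts and Pyy) and of the 2 well covered hormone genes that were not (Gcg and Sst) are shown for comparison, 5′ to 3′, from RefSeq (GRCm38.p6), with 250 bases before and 50 after the start. Capitals mark the E-box CANNTG, the motif of basic helix-loop-helix factors such as NEUROD1, and the cAMP response element TGACGTCA, the AP-1 element TGANTCA and the TATA box TATAAA, each searched on both strands. None of the marked motifs overlapped another.
Sct, chr7:141279084-141279383, minus strand: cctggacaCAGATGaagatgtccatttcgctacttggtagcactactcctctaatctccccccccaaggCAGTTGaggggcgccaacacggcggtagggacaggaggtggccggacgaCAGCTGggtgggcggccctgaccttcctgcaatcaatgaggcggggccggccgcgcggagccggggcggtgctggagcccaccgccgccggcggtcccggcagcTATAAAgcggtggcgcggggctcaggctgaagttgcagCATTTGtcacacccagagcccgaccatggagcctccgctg
Nts, chr10:102490369-102490668, minus strand: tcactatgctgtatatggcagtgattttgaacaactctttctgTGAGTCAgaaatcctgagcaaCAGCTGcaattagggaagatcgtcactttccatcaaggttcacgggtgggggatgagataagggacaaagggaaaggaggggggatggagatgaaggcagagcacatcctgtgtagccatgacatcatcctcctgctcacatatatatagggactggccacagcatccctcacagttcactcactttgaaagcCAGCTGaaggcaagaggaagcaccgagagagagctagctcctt
Pyy, chr11:102107783-102108082, minus strand: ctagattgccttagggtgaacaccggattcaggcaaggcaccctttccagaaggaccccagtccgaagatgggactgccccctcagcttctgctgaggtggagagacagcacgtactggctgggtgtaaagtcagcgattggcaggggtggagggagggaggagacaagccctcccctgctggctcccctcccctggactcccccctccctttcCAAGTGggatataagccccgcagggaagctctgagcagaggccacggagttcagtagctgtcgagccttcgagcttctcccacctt
Gcg, chr2:62483604-62483903, minus strand: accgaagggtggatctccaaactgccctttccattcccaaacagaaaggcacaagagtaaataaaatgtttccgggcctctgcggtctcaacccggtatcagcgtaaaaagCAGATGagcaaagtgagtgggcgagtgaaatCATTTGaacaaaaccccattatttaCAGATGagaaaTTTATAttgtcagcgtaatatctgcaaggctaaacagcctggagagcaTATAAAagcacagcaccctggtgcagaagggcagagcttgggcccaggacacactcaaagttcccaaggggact
Sst, chr16:23890795-23891094, minus strand: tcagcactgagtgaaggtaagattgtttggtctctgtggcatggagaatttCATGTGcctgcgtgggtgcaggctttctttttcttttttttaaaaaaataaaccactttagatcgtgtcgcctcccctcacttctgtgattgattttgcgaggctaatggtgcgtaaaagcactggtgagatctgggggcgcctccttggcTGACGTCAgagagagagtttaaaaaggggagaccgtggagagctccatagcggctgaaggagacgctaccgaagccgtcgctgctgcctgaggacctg

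The Sct window held 4 E-boxes and a TATA box that begins 28 bases before the start. The Nts window held 2 E-boxes of the same 6 letters and an AP-1 element that begins 207 bases before the start. The Pyy window held 1 E-box, 36 bases before the start, and the Gcg window 3 E-boxes and 2 TATA box matches. The Sst window held 1 E-box and the cAMP response element, which begins 48 bases before the start. Over all 10 genes, with only the window listed first counted for each, an E-box was in 9 windows. This compares with 72.3% of 32851 RefSeq windows of the same length, which include further windows of the same gene. The other window of Tph1, which was not counted, held an E-box and GC boxes. A TATA box was in 3 windows (13.6% of all), a GC box (GGGCGG, not marked) in 3 (35.7%), an AP-1 element in 1 (7.81%) and a cAMP response element in 2, those of Sst and Chgb (1.79%). An E-box was thus present in both kinds of hormone gene, and no motif searched was in all of the windows of Sct, Nts and Pyy and in neither of the windows of Gcg and Sst. These are matches of letters, not measured sites.

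Secretin, neurotensin and peptide YY were the hormones that were lower in the TLR4ΔIEC ileum, while proglucagon and somatostatin had log2 ratios of 0.00 and 0.17. Of the 7 genes that reached a mean of 5 units, 3 were lower by 2-fold or more and 0 were higher by as much, against 2.79% and 1.29% of the 8888 genes tested. Among genes of at least 20 units the count was 3 of 6, against 3.53% of 3682. The genes were chosen with earlier results of these data known, so these shares are no independent background. The median log2 ratio of the 7 was -0.76, and that of all genes tested was 0.03. Cck, Tph1 and Gip stayed below 5 units and were not counted. In RNA of whole tissue, fewer cells of a type and less RNA per cell cannot be told apart.

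**Figure D1:**
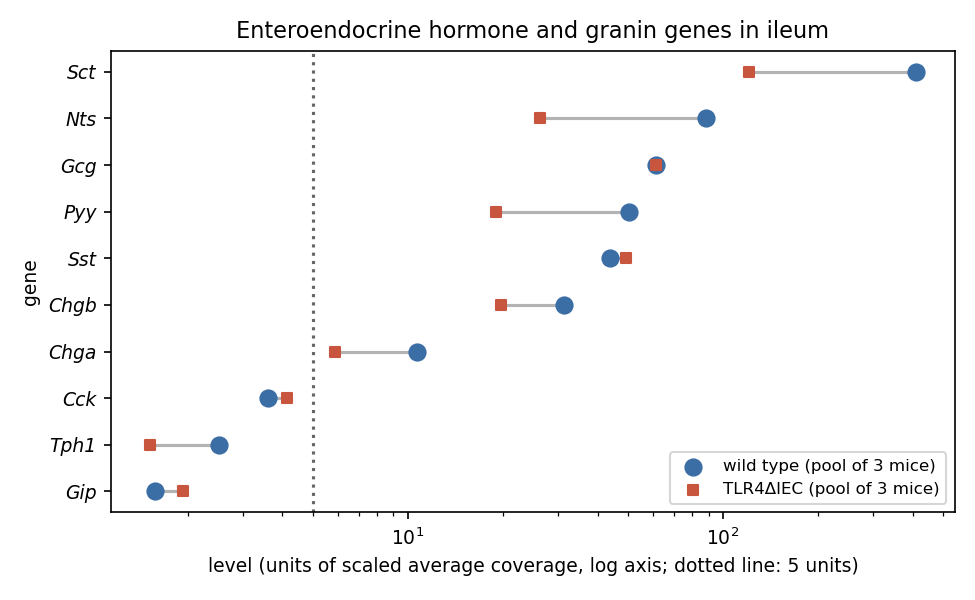
Level of each of the 10 genes in the wild type (circles) and TLR4ΔIEC (squares) pooled columns, in units of scaled average coverage on a log axis, 1 value per genotype with no error bar. Sct, Nts and Pyy are moved to the left in TLR4ΔIEC, Gcg is at the same place, and Cck, Tph1 and Gip lie below the dotted line at 5 units.

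Secretin, encoded by Sct (chromosome 7, 141278330 to 141279133, minus strand, mm10), is the hormone that drives bicarbonate secretion by the pancreas and bile ducts. It was the strongest of the 10 genes in both columns, its average coverage being 281 (wild type) and 86.8 (TLR4ΔIEC). That is 411 and 121 units, 3.39-fold lower (log2 ratio -1.75), the 39th lowest ratio of the 8888 genes. The value rests on 232060 and 71747 bases of reads over the same length of 827 bases, the largest number among the 10 genes in each column. The merged exons of its matched GENCODE transcripts sum to 534 bases. The entry of Sct thus averages over more bases than these exons, and over more than the gene coordinates above span with introns included. What the further bases are was not tested.

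Neurotensin, encoded by Nts (chromosome 10, 102481756 to 102490486, minus strand), is a peptide of the N cells of the ileum that slows gut movement and aids fat uptake. Its coverage was 60.4 (wild type) and 18.8 (TLR4ΔIEC), or 88.5 and 26.3 units, 3.37-fold lower (log2 ratio -1.72, the 44th lowest). The sums were 71325 and 22176 bases of reads over 1180 bases. Nts and Sct kept nearly the same proportion to each other: Sct was 4.64 times the level of Nts in wild type and 4.62 times in TLR4ΔIEC.

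Peptide YY, encoded by Pyy (chromosome 11, 102106676 to 102107832, minus strand), is a satiety hormone of the L cells of ileum and colon. Coverage was 34.3 (wild type) and 13.6 (TLR4ΔIEC), or 50.2 and 19.01 units, 2.64-fold lower (log2 ratio -1.36, the 115th lowest). It rests on 17116 and 6792 bases of reads over 499 bases, fewer than for Sct and Nts.

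Gcg (chromosome 2, 62474530 to 62483650, minus strand) encodes proglucagon, which L cells cut into the glucagon-like peptides, and L cells often make it together with Pyy. It differed from Pyy here: coverage was 41.9 (wild type) and 44.0 (TLR4ΔIEC), or 61.3 and 61.4 units, a log2 ratio of 0.00 on 45708 and 47992 bases of reads over 1091 bases. Pyy thus stood at 0.819 of the level of Gcg in wild type and at 0.309 in TLR4ΔIEC. Nts went from 1.44 to 0.427 times the level of Gcg, and Sct from 6.70 to 1.97 times. Such ratios are taken within a column and do not depend on the factor by which each column was scaled. They show that the genes moved unequally, not which of them stayed the same.

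Somatostatin, encoded by Sst (chromosome 16, 23889573 to 23890958, minus strand), is the peptide of D cells that restrains other endocrine cells, and enteric neurons make it too. Here the coverage was 29.8 (wild type) and 35.2 (TLR4ΔIEC), or 43.7 and 49.2 units (log2 ratio 0.17), on 17863 and 21087 bases of reads over 599 bases. In wild type Sst rests on about as many bases as Pyy. Relative to Gcg, Sst was at 0.712 (wild type) and 0.800 (TLR4ΔIEC).

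**Figure D2:**
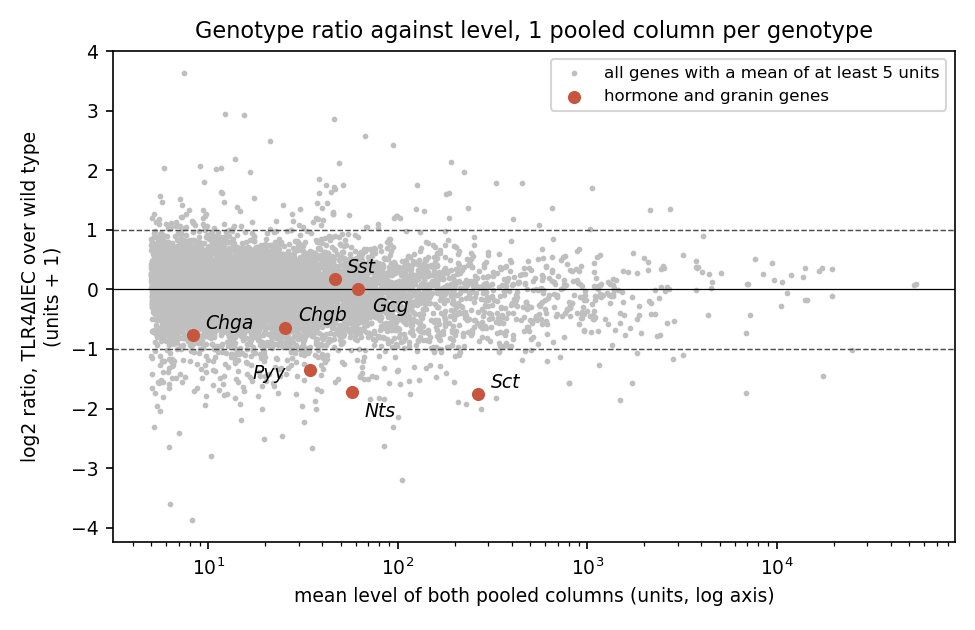
Log2 ratio of TLR4ΔIEC over wild type (units + 1) against the mean level of both pooled columns on a log axis, for the 8888 genes tested (grey) and the 7 hormone and granin genes among them (red). Dashed lines mark 2-fold. Sct, Nts and Pyy lie below the lower line, Chga and Chgb between it and 0, and Gcg and Sst near 0.

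The make-up of the hormone transcripts differed accordingly. The 7 hormone genes summed to 660 units (wild type) and 283 units (TLR4ΔIEC), 2.33-fold lower. Without Sct the sum of the other 6 was 249 and 162 units, 1.54-fold lower, so Sct alone made up most of the gap. Sct held 62.3% of the sum in wild type and 42.8% in TLR4ΔIEC, and Nts 13.4% and 9.27%. Gcg held 9.30% and 21.7%, and Sst 6.62% and 17.4%. The share of Pyy was 7.61% in wild type and 6.71% in TLR4ΔIEC. By level, the order of the first 5 in wild type was Sct, Nts, Gcg, Pyy and Sst, and in TLR4ΔIEC it was Sct, Gcg, Sst, Nts and Chgb. Shares and orders carry the limit on lengths given above, and without a spread between mice it cannot be said which neighbours in these orders differ.

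**Figure D3:**
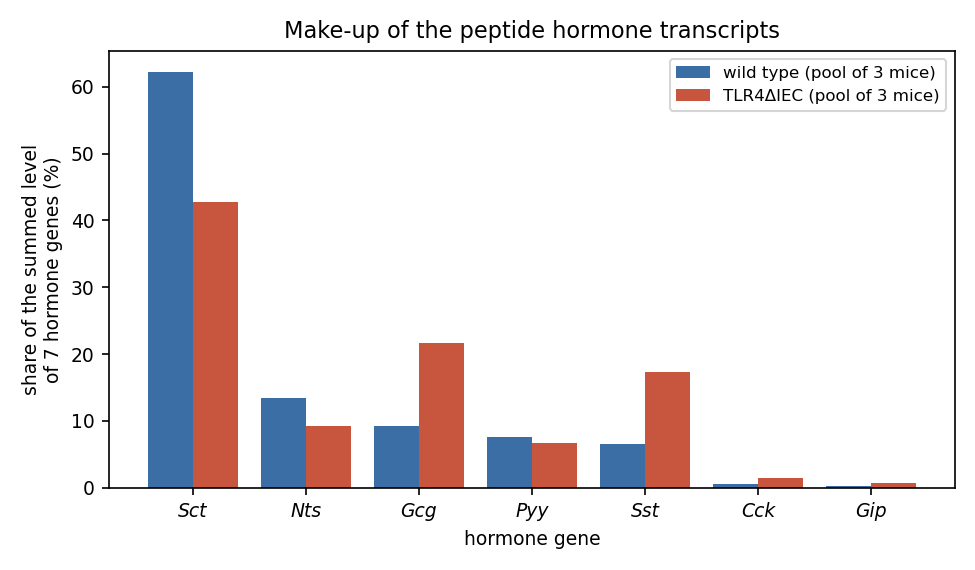
Share of each hormone gene in the summed level of the 7 hormone genes, in percent, for the wild type and TLR4ΔIEC pooled columns, 1 value per genotype. The share of Sct is 62.3% in wild type and 42.8% in TLR4ΔIEC, and those of Gcg and Sst are more than 2 times as high in TLR4ΔIEC.

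The granins, which are found in most enteroendocrine cells, had ratios between those of the 3 lower hormones and those of Gcg and Sst. Chromogranin B, encoded by Chgb (chromosome 2, 132781278 to 132795079, plus strand), was at 31.3 (wild type) and 19.7 (TLR4ΔIEC) units (log2 ratio -0.64), on 58390 and 38547 bases of reads over 2733 bases. Chromogranin A, encoded by Chga (chromosome 12, 102554969 to 102565028, plus strand), was weaker, with a coverage of 7.29 and 4.21 and a level of 10.7 and 5.88 units (log2 ratio -0.76). Neither reached 2-fold. Chgb was 2.93 times the level of Chga in wild type and 3.35 times in TLR4ΔIEC. Relative to Chgb, Sct went from 13.1 to 6.15 times, Nts from 2.83 to 1.33 times and Pyy from 1.61 to 0.965 times its level. Gcg, by contrast, went from 1.96 to 3.12 times and Sst from 1.40 to 2.50 times the level of Chgb. The lower hormones were thus lower also relative to Chgb, and Gcg and Sst were higher relative to it.

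The remaining 3 genes were weakly covered. Cholecystokinin (Cck, chromosome 9, 121489824 to 121495694, minus strand), a hormone of I cells that is stronger in the upper small intestine, was at a coverage of 2.46 (wild type) and 2.97 (TLR4ΔIEC), or 3.60 and 4.14 units (log2 ratio 0.16). The incretin Gip (chromosome 11, 96024545 to 96030831, plus strand), a product of K cells of the upper small intestine, was at a coverage of 1.08 and 1.38, or 1.58 and 1.93 units (log2 ratio 0.18). Tph1 (chromosome 7, 46644641 to 46672537, minus strand) was at a coverage of 1.72 and 1.08, or 2.52 and 1.51 units (log2 ratio -0.49). None of the 10 genes overlapped another gene in GENCODE vM21.

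For these 3 genes and Chga the averages of the 2 columns did not run over the same length, and this turned the direction of Gip. The length behind the average, or a divisor of it, can be read back from its decimals. For Gip, and for Cck in wild type, it equalled the summed length of some of their exons. For Gip the wild type value was 568 bases of reads over 527 bases, the summed length of exons 1 to 5, and the TLR4ΔIEC value was 438 bases of reads over 317 bases, a length that 3 exons give. Sums were compared with no pseudocount, and so are the units beside them in what follows. The scaled sum of bases was lower in TLR4ΔIEC for Gip (log2 ratio -0.44), whereas its units were higher (0.29). For Cck the wild type sum was 1697 bases over 691 bases, 3 of its 4 merged exons. In TLR4ΔIEC the decimals gave 181 bases of reads over 61 bases, or multiples of both. The only sum of exons that is such a multiple is that of all 4, 854 bases, with 2534 bases of reads. With this assumed length the log2 ratio was 0.51 in scaled sums, against 0.20 in units. For Tph1 and Chga no set of exons was matched, and the smallest lengths that the decimals allow were used. For Tph1 they gave 2790 bases over 1619 and 1721 over 1587 (log2 ratio -0.77 in sums and -0.74 in units), and for Chga 13727 over 1882 and 7722 over 1835 (-0.90 and -0.86). Most of the gap between these values and the ratios of units plus 1 given above for Tph1 and Chga thus comes from the pseudocount. The other 6 genes rest on the same length in both columns, so that sums and units give the same ratio by construction: -1.76 for Sct, -1.75 for Nts, -1.40 for Pyy, -0.67 for Chgb, 0.00 for Gcg and 0.17 for Sst. The scaled sums were compared after the averages had been seen.

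**Figure D4:**
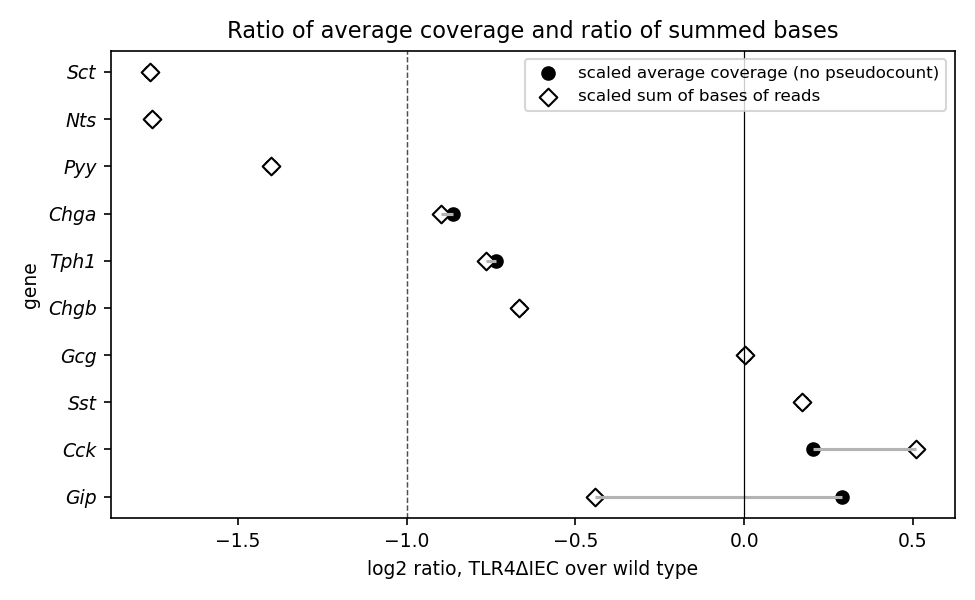
Log2 ratio of TLR4ΔIEC over wild type for each of the 10 genes, from average coverage in units (filled circles) and from scaled sums of bases of reads (open diamonds), both with no pseudocount. The dashed line marks 2-fold lower. For the 6 genes with the same length in both columns the diamond covers the circle by construction, and for Gip they lie on opposite sides of 0. The diamond of Cck rests on an assumed length in TLR4ΔIEC.

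Other genes of the endocrine pathway, and Tph1 again, were examined in 7 lists with 127 entries, of which 36 reached 5 units. On the scale of units plus 1, 1 of the 36 was lower by 2-fold or more and 0 were higher by as much, against 2.79% and 1.29% of all genes tested. Of the 36, 22 lay below 0 and 14 above, with a median of -0.07, against 47.3% below 0 and a median of 0.03 for all genes tested. Most regulators and receptors of the pathway were too weakly covered to be counted. Some of the 36, such as Slc5a1, Slc15a1 and Foxa1, are not particular to endocrine cells. The count thus does not describe endocrine cells alone.

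Among other gut peptides, 3 of 19 reached 5 units and none differed by 2-fold on the scale of units plus 1. The substance P precursor Tac1, a product of crypt enterochromaffin cells and enteric neurons, came closest, at 6.75 (wild type) and 14.2 (TLR4ΔIEC) units (log2 ratio 0.97). Without the pseudocount it was more than 2-fold higher in TLR4ΔIEC, and its averages rest on different lengths. Sct was 60.8 times the level of Tac1 in wild type and 8.55 times in TLR4ΔIEC. Vip, a peptide of enteric neurons, was at 13.4 and 19.5 units (0.50), and the hunger hormone Ghrl at 6.53 and 5.33 units (-0.25, on different lengths).

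Of 26 genes of prohormone processing and the dense-core granule, 8 reached 5 units, 4 below 0 and 4 above, with a median of -0.20. Bex2 was the single gene at least 2-fold lower, at 9.91 (wild type) and 2.90 (TLR4ΔIEC) units (log2 ratio -1.48), on only 2422 and 743 bases of reads. Secretogranin II, encoded by Scg2, was at 13.4 and 7.71 units (-0.73), a ratio like those of Chga and Chgb. The granule GTPase Rab3d, which exocrine cells also use, was at 20.2 and 30.7 units (0.58). Pcsk1, the convertase that cuts proglucagon in L cells, was below 5 units at 3.34 and 3.33 units, and was named after its value was seen.

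Of 22 endocrine transcription factors, 4 reached 5 units and none differed by 2-fold (median 0.01). Sox4 was at 5.76 and 8.05 units (0.42), and Foxa1, which the whole epithelium uses, at 8.74 and 8.81 units (0.01). Myt1 was at 11.9 and 6.98 units (-0.69), but its averages rest on lengths of 761 and 5767 bases, or multiples of these, so the ratio cannot be read. The other 18 were at a mean of at most 3.00 units. Neurog3, which starts the endocrine lineage, was at 0.726 and 0.874 units, and Neurod1, which acts after it, at 0.728 and 0.394 units, both named after their values were seen.

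Genes of serotonin handling lay within 2-fold. Of 13 genes, Tph1 included, 7 reached 5 units, 6 below 0 and 1 above, with a median of -0.09 and none at 2-fold. The cofactor recycling enzyme Qdpr was at 121 and 86.7 units (-0.48), the serotonin transporter Slc6a4, which clears serotonin into enterocytes, at 26.6 and 21.3 units (-0.30), and the cofactor synthesis enzyme Gch1 at 4.78 and 5.63 units (0.20).

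Among 19 nutrient sensors 4 reached 5 units, all below 0 but within 2-fold (median -0.18). They include the fatty acid receptor Ffar4 (10.003 and 8.74 units, -0.18) and the transporters Slc5a1 for glucose (187 and 164 units, -0.19) and Slc15a1 for small peptides (65.2 and 53.0 units, -0.29, on different lengths), which absorbing cells also carry. Of 19 receptors for the hormones only Sort1, a sorting receptor that binds neurotensin, reached 5 units (35.4 and 37.1 units, 0.06). All 9 enzymes that break down peptide hormones reached 5 units, with 6 below 0, 3 above, a median of -0.13 and none at 2-fold. Of these, neprilysin (Mme) was at 15.02 and 9.29 units (-0.64), the insulin-degrading enzyme Ide at 13.1 and 20.8 units (0.63) and neurolysin (Nln), which cleaves neurotensin, at 11.7 and 15.6 units (0.38, on different lengths).

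**Figure D5:**
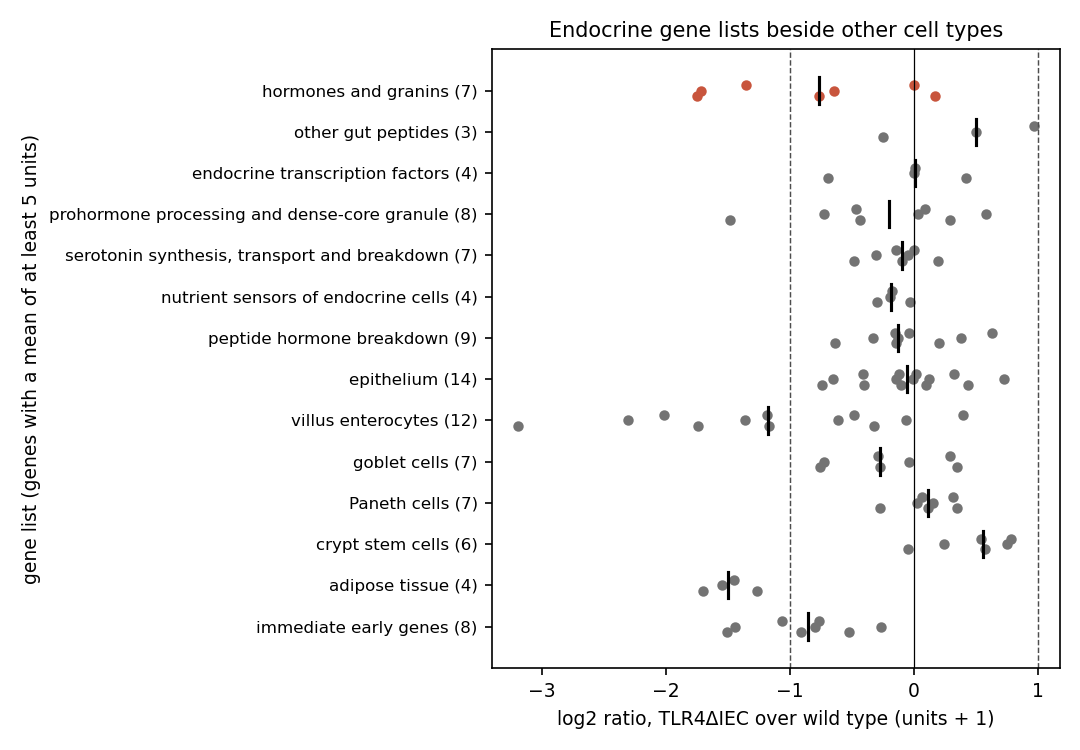
Log2 ratio of TLR4ΔIEC over wild type (units + 1) for genes that reached a mean of 5 units, in the hormone and granin list (red), endocrine pathway lists and lists of other cell types (grey). Each point is a gene, the black bar is the list's median, the number in brackets is the number of genes, and dashed lines mark 2-fold.

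Markers of other cells were set beside the lower hormones, and their part in the result was not tested. Counts and medians here cover genes of at least 5 units, while summed levels cover all genes of a list, weaker ones included. Of 12 villus enterocyte genes 7 were lower by 2-fold or more, against 2.79% of all genes tested, with a median of -1.18. The summed level of the list was 16497 (wild type) and 6031 (TLR4ΔIEC) units. Lower by as much were also 4 of 4 adipose genes (median -1.50, summed level of the list 71.3 and 24.5 units). So were 3 of 8 immediate early genes (median -0.86, 350 and 171 units). The lists were drawn up with earlier results of these data known, so the share of all genes is no independent background for these counts. The crypt stem cell list stood at a median of 0.56, with 0 of 6 at 2-fold (229 and 356 units). Olfm4, at 133 and 224 units, made up most of these sums, and the averages of Olfm4 and Prom1 rest on different lengths. Among the genes with the same length, Smoc2 (0.54), Cdca7 (0.58) and Rnf43 (0.25) were above 0 and Axin2 (-0.05) below. General epithelial genes had a median of -0.06, 0 of 14 at 2-fold and 7378 and 6877 units. With such a median, scaling the columns by these epithelial genes could shift the ratios only slightly, that of Pyy from -1.36 to -1.30. Sct, Nts and Pyy therefore remained the genes at least 2-fold lower. Goblet cell genes had a median of -0.28 (15312 and 11222 units) and Paneth cell genes of 0.12 (89527 and 92610 units), both with 0 of 7 at 2-fold. Tuft cell genes had a median of 0.06 over 2 genes, and all 8 listed summed to 33.9 and 33.6 units.

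Markers of other sources of these peptides were measured in the same columns. Enteric neurons can make Sst, Cck, Chga and Chgb, and their 14 markers summed to 30.4 (wild type) and 28.4 (TLR4ΔIEC) units, with 1 gene above 5 units, Uchl1 (7.54 and 7.15 units, on different lengths). Pancreatic genes summed to 9.88 and 15.02 units over 11 listed genes. Of these sums Cela1, the only gene of the list above 5 units, made up 6.89 and 11.1. The islet genes Ins1 and Ins2 were at 0.0776 and 0.0960 and at 0.101 and 0.118 units. Mast cells can express Tph1, and their 8 markers summed to 9.01 and 22.3 units, of which Kit, which other cells of the gut wall express too, made up 6.82 and 11.6. Their part in the level of Tph1 was not tested.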

How the data were processed

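Per the labels' protocols, total RNA of snap-frozen ileum was depleted of ribosomal RNA, fragmented with RNase III and made into barcoded, strand-specific Ion Torrent libraries. The submitters' processing notes name TopHat2 2.0.10, Bowtie2 2.1.0 and the build mm10. What tool made the coverage values, and with what read length, is not given in the sources used here. Reads were therefore not counted, and there are no counting intervals. The signal deposited by the authors is, per the file headers, an average coverage for each RefSeq entry, not scaled to library size. Per the labels, 1 column serves the 3 mice of a genotype.

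The 22001 entries in both columns were scaled by the median of ratios (factor 1.05) to a mean total of 1000000 units. The entry with the highest mean stood for a repeated symbol. A pseudocount of 1 was added, which understates the ratios of weak genes. Lengths were read back as the smallest whole divisor (tolerance 1e-11) and may divide the true length. For Cck in TLR4ΔIEC a multiple of it that matched the exons was used. Gene coordinates were taken from GENCODE vM21, made on GRCm38, which is mm10, and promoter windows, matched by symbol for all 10 genes, from RefSeq. The scaling and ratio steps were tested on simulated data. The genes and lists were chosen with earlier results of these data known. Named were the 10 genes and, of each list, genes of at least 5 units that were 2-fold different or among the 3 largest ratios. Of the lists of other cell types, only summed levels, medians and counts are given for most, and 1 such list is not reported here. The results were recomputed with 5 further scalings, 2 further pseudocounts, 3 further filters and the mean over entries. Python 3.11.15, numpy 2.4.6 and pandas 2.3.3 were used.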

Additional observations from a re-analysis of the deposited data

How the results depend on the processing

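The count of 3 genes at least 2-fold lower was obtained under all 11 other settings tried (scalings, pseudocounts, filters and the mean over entries), each time for Sct, Nts and Pyy, and the count of higher genes was 0 in each. None of these settings changed the sign of any of the 10 ratios, but only the 5 scalings could have done so. A pseudocount cannot turn a sign, and the filters and the mean over entries left the 10 ratios as they were. Nor could the filters leave out Sct, Nts or Pyy, whose means were above 20 units. Over the 11 settings the log2 ratio ranged from -1.76 to -1.61 for Sct, from -1.75 to -1.58 for Nts, from -1.40 to -1.20 for Pyy and from 0.00 to 0.11 for Gcg. The median of the measured genes was -0.70 with scaling to the column total and with coverage as deposited, -0.67 when the 50 highest genes were left out of the total used for scaling, -0.71 with scaling by epithelial genes, -0.79 with quantile normalization, -0.85 and -0.55 with pseudocounts of 0.1 and 5, -0.56 with a filter at 1 unit or none, which brings in the 3 weak genes, and -0.9985 with a filter at 20 units, which leaves out Chga. Sums of bases in place of averages, with no pseudocount and chosen after seeing the data, turned Gip to -0.44. Over all genes, the numbers lower and higher by 2-fold were 248 and 115, against 188 and 155 when scaling left out the 50 highest genes, and 146 and 65 when 5 was the pseudocount. With the filter at 1 unit they were 380 and 206, with none 395 and 222, and at 20 units 130 and 58. No paired analysis was possible because each genotype has 1 pooled column, and for the same reason no mouse could be left out. Depth limits Gip, Tph1 and Cck, which rest on 438 to 2790 bases of reads in a column, with the assumed length for Cck in TLR4ΔIEC.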

Other observations

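Some further endocrine genes differed between the columns below 5 units, where lengths and depth leave the values uncertain, and they were chosen after their values were seen. Ppy, the pancreatic polypeptide gene and a relative of Pyy, was at 2.67 (wild type) and 0.201 (TLR4ΔIEC) units, on at least 162 and 17 bases of reads. Calcb, a peptide of sensory and enteric neurons, was at 5.84 and 2.61 units on 1917 and 898 bases. The somatostatin receptor Sstr5 was at 0.810 and 0.274 units, and the propionate receptor Ffar3 at 1.72 and 0.474 units. The receptor Gpr119, which triggers hormone release from L cells, was higher in TLR4ΔIEC, at 0.0916 and 0.571 units on 142 and 928 bases. The mast cell protease Mcpt2 was at 0.196 and 4.62 units and Mcpt1 at 1.01 and 3.08 units. Gastrin (Gast) was listed only in the TLR4ΔIEC column and Gpr142 only in the wild type column, and neither was taken as 0 in the other.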
